A study of Mus musculus with 2 samples.

Results

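Integrins are cell-surface receptors built from an alpha and a beta subunit, and they fasten a cell to the extracellular matrix or to other cells. Their affinity is raised from inside the cell when talin and kindlin bind the beta tail, and the bound receptor passes signals back through kinases and adaptors at the adhesion site. Tetraspanins are small proteins that cross the membrane several times and gather integrins, proteases and immune receptors into membrane patches. In macrophages, leukocyte integrins carry out attachment, complement-dependent uptake and migration. The genes described here are the integrin and tetraspanin genes, chosen by name: every gene whose only symbol on the array is Itga or Itgb with its number or letter, or Tspan with a number. The rule found 43 such genes of 18193 measured, 24 for integrin subunits and 19 for tetraspanins. Tetraspanins with other names, such as Cd9, and integrin-like or integrin-binding genes such as Itgbl1 fall outside it.

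The arrays were made from peritoneal macrophages of male C57BL/6 mice, collected 48 h after transfection with control siRNA in the first group (1 array) and HDAC9 siRNA in the second (1 array); HDAC9 is a class IIa histone deacetylase. Without a replicate in either group, every ratio below compares 2 arrays, carries no test and has no replicate error to be read against. The labels do not say how many mice contributed or whether their cells were pooled. For the siRNA target Hdac9, the log2 signals were 6.88 (control siRNA) and 5.69 (HDAC9 siRNA, below background), at least 1.46-fold lower, while its other probe set was below background on both (5.99 and 5.94).

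Values are the deposited log2 signals of each gene's brightest probe set, and a ratio is always HDAC9 siRNA over control siRNA. Signals under a background floor of log2 6.34, taken from olfactory and vomeronasal receptor probe sets, were raised to the floor, so where 1 signal is below it the fold is a lower bound, written "at least". Signals of different probe sets are not comparable as transcript levels, so no gene is ranked against another by its signal. The scatter between probe sets of the same gene, 0.29 on the log2 scale over 5671 genes, is the only internal yardstick; it leaves out differences between cultures.

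Of 10 macrophage markers, 9 were above background on both arrays, with a median log2 ratio of 0.01. By their brightest probe sets, only 4 of the 9 stayed within the scatter between probe sets: Adgre1, Csf1r, Cd68 and Lyz2. Gata6 (0.46), Fcgr1 (0.43), Icam2 (0.40) and Mertk (0.37) were higher with HDAC9 siRNA and Cd14 (-0.46) was lower, all beyond that scatter. The second probe set of Fcgr1 gave -0.04, however, and the other probe sets of Csf1r gave -0.32 and -0.18. The other probe sets of Gata6 gave 0.74 and 0.46. Timd4, a receptor of resident peritoneal macrophages, was below background on both arrays, while Gata6 had log2 signals of 10.74 (control siRNA) and 11.20 (HDAC9 siRNA). Markers of other cells were also present: all 9 fibroblast and all 9 mesothelial markers were above background on both arrays.

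None of the 28 integrin and tetraspanin genes above background on both arrays differed by 2-fold. Of the other 15 of the 43 genes, 4 were above background on 1 array, so that their folds are lower bounds, and 11 on neither. The 4 bounds were all under 2-fold, but a bound sets no upper limit: when the 75th percentile of the olfactory and vomeronasal signals, in place of the 95th, served as the floor, Itga9 and Tspan2 passed 2-fold (log2 ratios of 1.45 and -1.11). Over all genes, 658 of 15136 were at least 2-fold higher and 259 lower with that floor. Across the 32 above background on at least 1 array, 0 were at least 2-fold higher and 0 at least 2-fold lower by these values and bounds, where 1.81% of all 12090 genes above background passed 2-fold in either direction, 1.44% higher and 0.372% lower. At that background fewer than 1 of 32 genes would pass, so the count is close to the share over all genes. The median log2 ratio of the 32 was 0.0041, against 0.03 for all genes, and 16 of them lay on each side of 0; 54.1% of all genes were above 0.

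At the lower threshold of 1.5-fold, 5 of the 32 genes differed, 4 higher and 1 lower, while 10.6% of all genes did, 7.81% higher and 2.79% lower. These were Itgb7, Itga9, Tspan8 and Itga1, which were higher, and Itgb3, which was lower. All 5 lay in the dimmer 2 of 4 equal bins of mean signal. Over all genes, 21.7% passed 1.5-fold in the dimmest bin, 13.2% in the second and 2.22% in the brightest. Differences of this size were thus more common among dim genes than among bright ones. Of the integrin and tetraspanin genes, 3 of 8 in the dimmest bin and 2 of 9 in the second passed it. Their median absolute log2 ratios in these bins were 0.49 and 0.41, against 0.32 and 0.24 for all genes. The brightest bin held 12 of the integrin and tetraspanin genes, and 0 of them passed 1.5-fold.

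**Figure D1:**
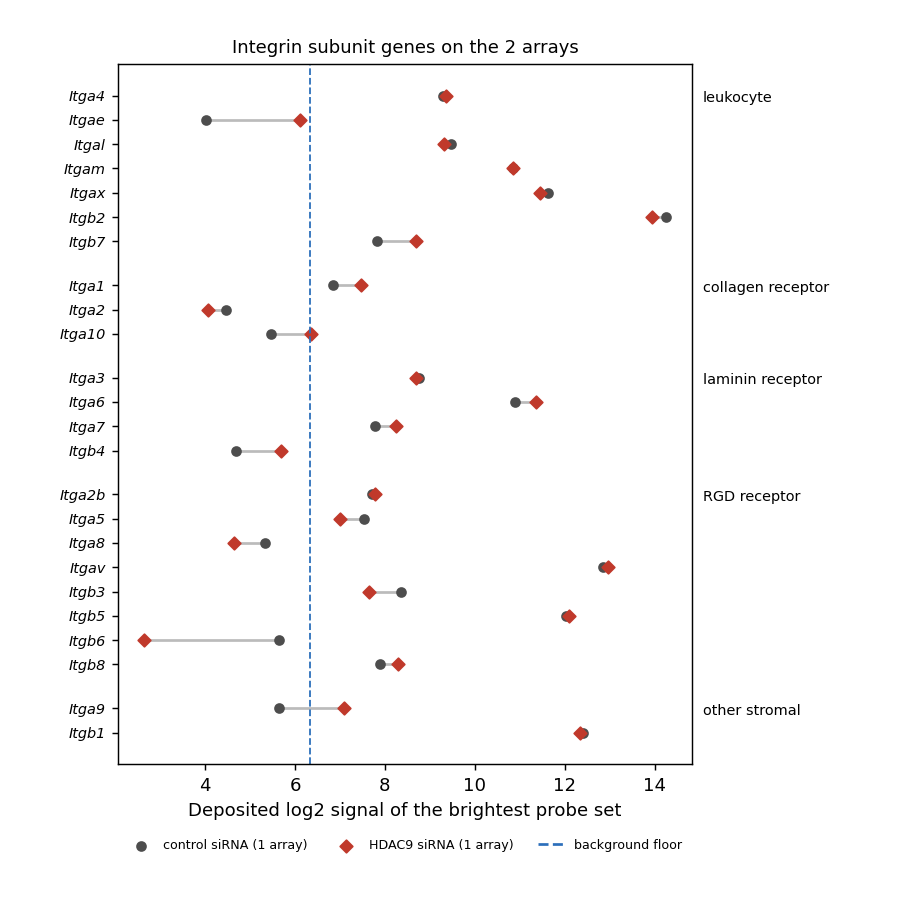
Deposited log2 signal of each integrin gene's brightest probe set (x axis) on the control siRNA array (grey circles) and the HDAC9 siRNA array (red diamonds), with genes on the y axis grouped by ligand class and the background floor of 6.34 as a dashed line. Itgb7 lies to the right on the HDAC9 siRNA array and Itgb3 to the left, while Itgam, Itgb1 and Itgb5 nearly coincide; long bars left of the line lie below background.

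The leukocyte integrins are the receptors of blood cells: the chain Itgb2 (CD18) with its partners Itgal, Itgam and Itgax, and the subunits Itga4, Itgae and Itgb7. Of 7 measured, 6 were above background on both arrays, 4 with a ratio below 0 and 2 above, where 54.1% of all genes were above 0. Their median log2 ratio was -0.09, and 4 of the 6 stayed within the 0.29 scatter, beside 65.7% of all genes.

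The 4 genes of the Itgb2 family, which bind ICAMs, complement fragments and fibrinogen, all had ratios below 0, with a median of -0.17. Itgb2 itself, the chain that all of them need to reach the surface, had log2 signals of 14.25 and 13.95 on the control and HDAC9 siRNA arrays, 1.22-fold lower. Its log2 ratio of -0.29 was about the size of the scatter, and 15.1% of the genes in the same signal bin differed by as much. Itgam (CD11b), the alpha chain of complement receptor CR3 and a standard macrophage marker, was at 10.85 and 10.84, a log2 ratio of -0.01 that turned to 0.01 under loess. Itgax (CD11c), of macrophages and dendritic cells, was at 11.62 and 11.45, a log2 ratio of -0.18. Itgal (CD11a), the alpha chain of LFA-1, was at 9.48 and 9.31, a log2 ratio of -0.16. The differences of this family were small, and each was about as large as the scatter between probe sets of a gene or smaller.

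Itga4 and Itgb7 form the receptor that binds MAdCAM-1 and VCAM-1 and that guides lymphocytes to the gut, and Itga4 also pairs with Itgb1. Their ratios differed. Itgb7 was at 7.83 with control siRNA and 8.69 with HDAC9 siRNA, 1.81-fold higher, the largest difference among the 28 genes above background on both arrays. Only 2.73% of all genes above background were as high or higher in ratio, and 4.67% of the genes in its signal bin differed by as much in either direction. Itga4 was at 9.29 and 9.36 by its brightest probe set, a log2 ratio of 0.07, and its other 2 probe sets above background gave -0.43 and a bound of -0.07. Itgae (CD103), the other partner of Itgb7, was below background on both arrays (4.03 and 6.11).

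Because Itgb7 marks lymphocytes and other blood cells, their markers are given beside it. Of 9 T cell markers, 4 exceeded background with control siRNA and 3 with HDAC9 siRNA. Of these 4, 3 were at least 1.5-fold lower with HDAC9 siRNA, and the median log2 ratio was -0.70. The summed linear signal of the 9 was 15710 and 15564, most of it from Il7r (14174 and 14616); the other 8 summed to 1536 and 948. Of 6 B cell markers, 0 exceeded background with control siRNA and 1, Pax5, with HDAC9 siRNA, with sums of 239 and 230.0. All 6 mast cell markers were below background on both arrays, with sums of 151 and 115. The T cell genes Cd3d, Cd3e and Cd3g and the B cell genes Cd79a, Cd79b and Ms4a1 were among those below background on both arrays. The T cell markers Lat (-0.77) and Cd28 (-0.64) were above background on both arrays and lower with HDAC9 siRNA. Cd8a was above background with control siRNA only (7.13) and at least 1.73-fold lower, while Il7r was at 0.04. Pax5, above background with HDAC9 siRNA only, had a bound of 0.40. Of 5 eosinophil markers only Siglecf was above background, at 9.21 and 8.13, 2.11-fold lower, and the list summed to 674 and 347. Of 4 NK cell markers Prf1 alone was above background (0.07; sums of 172 and 200.1), and of 5 dendritic cell markers Zbtb46 alone (0.26; sums of 226 and 317). Of 5 neutrophil markers 3 were above background on both arrays, with ratios from -0.22 to 0.45 and sums of 1334 and 1380. No marker on these lists was at exactly 0, and their part in the value of Itgb7 was not tested. In bulk RNA of this kind, more cells of a type and more RNA per cell cannot be told apart.

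Upstream sequences were available for 4 leukocyte integrin genes, and not for Itgb2, Itgal or Itgae. Those of 3 are shown: Itgam, nearly equal on both arrays, Itgax, slightly lower, and Itgb7, higher. Each is the stretch of 250 bases before the annotated start, from RefSeq (GRCm38.p6), written on the gene's own strand. Capitals mark matches on either strand to GAGGAA, the core bound by the myeloid factor PU.1, or to TGANTCA, the site of AP-1; no match to one motif overlaps a match to the other here. Itgam lies at chr7:128062390-128062639 on the plus strand, Itgax at chr7:128129300-128129549 on the plus strand and Itgb7 at chr15:102231936-102232185 on the minus strand.
Itgam: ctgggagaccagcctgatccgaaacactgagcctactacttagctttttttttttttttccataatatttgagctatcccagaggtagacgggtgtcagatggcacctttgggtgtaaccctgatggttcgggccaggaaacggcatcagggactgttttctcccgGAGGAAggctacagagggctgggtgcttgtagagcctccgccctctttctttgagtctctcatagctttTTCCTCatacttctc
Itgax: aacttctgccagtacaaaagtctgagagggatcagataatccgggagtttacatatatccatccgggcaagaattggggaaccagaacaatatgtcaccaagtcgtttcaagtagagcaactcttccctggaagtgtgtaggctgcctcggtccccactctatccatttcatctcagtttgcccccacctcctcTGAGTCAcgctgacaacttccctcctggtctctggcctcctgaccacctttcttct
Itgb7: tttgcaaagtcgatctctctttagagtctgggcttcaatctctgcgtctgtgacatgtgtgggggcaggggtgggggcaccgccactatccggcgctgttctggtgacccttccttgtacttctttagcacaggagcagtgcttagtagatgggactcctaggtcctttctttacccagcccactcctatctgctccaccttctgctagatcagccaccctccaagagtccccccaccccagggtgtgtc
The Itgam stretch holds GAGGAA from 84 to 79 bases before the start and its reverse complement TTCCTC from 15 to 10 bases before it. The Itgax stretch holds TGAGTCA from 56 to 50 bases before the start, and the Itgb7 stretch holds 0 matches to either motif. Over all 27025 genes in the promoter table, 25.9% had the PU.1 core and 7.82% the AP-1 site in the same stretch. Among the integrin and tetraspanin genes in that table these were 12 of 35 (34.3%) and 2 of 35 (5.71%). The PU.1 core was found in 1 of 4 leukocyte integrin, 6 of 13 other integrin and 5 of 18 tetraspanin genes, and the AP-1 site in 1, 0 and 1 of them. The matches describe letters only, and no binding was measured.

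**Figure D2:**
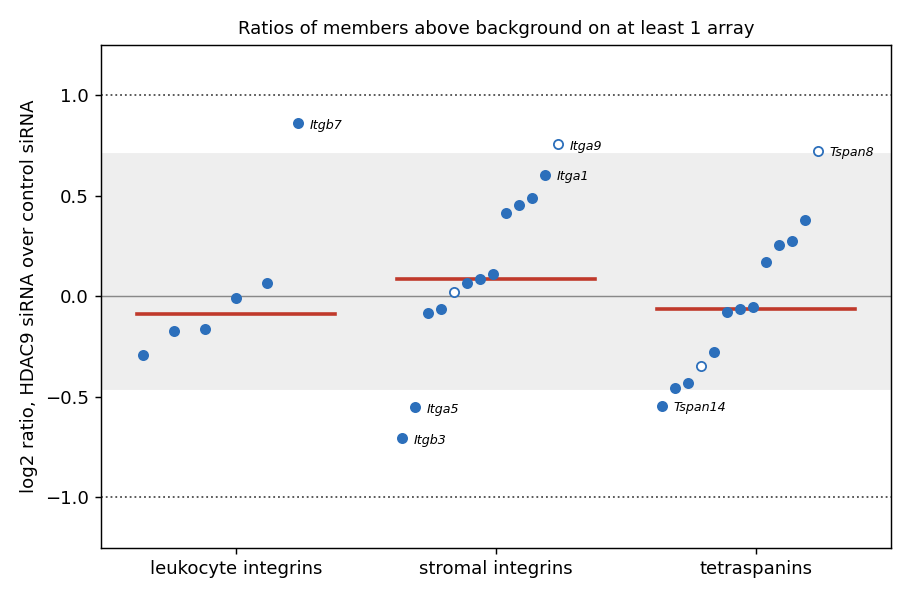
Log2 ratio between the arrays, HDAC9 siRNA over control (y axis), for the 6 leukocyte integrin, 13 stromal integrin and 13 tetraspanin genes above background on at least 1 array; filled points were measured on both arrays, open points are bounds, red bars are group medians, the grey band runs from the 5th to the 95th percentile of all genes and dotted lines mark 2-fold. No point reaches a dotted line, though open points may lie further from 0 than drawn, and Itgb7, Itga9 and Tspan8 lie above the band and Itgb3, Itga5 and Tspan14 below it.

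The remaining 17 integrin genes bind matrix proteins and are called stromal integrins here, although macrophages and platelets also carry several of them. Of these, 13 were above background on at least 1 array. Their median log2 ratio was 0.09, with 9 genes above 0 and 4 below, against 54.1% above 0 over all genes. At least 1.5-fold higher were 2 and lower 1, beside 7.81% and 2.79% of all genes. The stromal median exceeded the leukocyte median by 0.17. If the 0.29 scatter were the only error of each gene and genes were independent, that difference would carry an error of 0.18, about as large as itself. This figure reflects probe set scatter alone. It leaves out differences between cultures and is no replicate error of the difference between the classes. Single genes ran from -0.71 to 0.75 (a bound) in the stromal and from -0.29 to 0.86 in the leukocyte integrins.

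Among the collagen receptor subunits, Itga1, which binds collagen IV, had log2 signals of 6.85 and 7.46 on the control and HDAC9 siRNA arrays. That is 1.52-fold higher, and 20.6% of the genes in its dim signal bin differed by as much. Itga10, a receptor of cartilage collagen, was below the floor on one array and just above it on the other (5.46 and 6.36), a bound of 0.02. Itga2 was below background on both arrays.

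The laminin receptor subunits had a median log2 ratio of 0.45 over 3 genes above background on both arrays. Itga6, which anchors cells to basement membranes, was at 10.90 and 11.36, a log2 ratio of 0.45 from its brightest probe set and 0.64 from its second. Both probe sets were higher, and 4.80% of the genes in the brightest signal bin differed by as much. Itga7, the laminin receptor of muscle, was at 7.77 and 8.26, a log2 ratio of 0.49 by its single probe set. Itga3, which binds laminins of epithelial basement membranes, gave no settled direction, with -0.06 from its brightest probe set (8.76 and 8.70) and 0.64 and a bound of 0.25 from the others. Itgb4, the chain of hemidesmosomes, was below background on both arrays.

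The subunits of receptors for the RGD motif of fibronectin and vitronectin went both ways. Itgb3, the chain shared by the vitronectin receptor and the platelet fibrinogen receptor, was the lowest integrin gene, with log2 signals of 8.35 and 7.64. It was 1.63-fold lower, 1.59% of all genes above background were lower still, and 8.01% of the genes in its signal bin differed by as much. Its alpha partners stayed within the scatter: Itgav was at 12.85 and 12.96, a log2 ratio of 0.11, and Itga2b, of platelets and megakaryocytes, was at 7.70 and 7.79, a log2 ratio of 0.09 (0.00 under quantile normalization and loess). The other beta partners of Itgav were Itgb5, of a vitronectin receptor that takes part in the uptake of apoptotic cells, at 12.04 and 12.10 (log2 ratio 0.07), and Itgb8, which releases active TGF-beta from its latent complex, at 7.88 and 8.30 (0.41).

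Itga5, the alpha chain of the main fibronectin receptor, was at 7.54 and 6.99 by its brightest probe set, a log2 ratio of -0.55. The name of that probe set ends in _s_at, the suffix of probe sets that can match several transcripts. The other 3 probe sets of Itga5 above background gave 0.17 and bounds of 0.27 and -0.07. Both directions therefore occurred, and the size of the decrease rests on the brightest probe set. Itgb6, of epithelia, and Itga8, of smooth muscle and mesenchyme, were below background on both arrays. Of 8 platelet and megakaryocyte markers measured beside Itgb3, Itga2b among them, 6 were above background on each array, with summed linear signals of 1891 (control siRNA) and 1727 (HDAC9 siRNA). Over the 7 above background on at least 1 array, 5 ratios were above 0 and 2 below, with a median of 0.18. Pf4, the brightest marker, had a log2 ratio of -0.38, and without it the sums were 741 and 840. None was listed at 0; their part in the value of Itgb3 was not tested.

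Itgb1 is the chain with most partners, pairing with Itga1, Itga3, Itga4, Itga5, Itga6, Itga7 and Itga9 of the genes above. It was at 12.42 and 12.33, a log2 ratio of -0.08, and its other 2 probe sets above background gave -0.12 and 0.01. Of its alpha partners above background on both arrays, Itga7 and Itga1 were the highest, at 0.49 and 0.60, and Itga5 the lowest, at -0.55 by its brightest probe set but 0.05 by the median over its probe sets. Itga9, which binds tenascin and osteopontin, was at 5.64, below background, with control siRNA and at 7.09 with HDAC9 siRNA, at least 1.69-fold higher. Its second probe set was also below the floor on the control array and above it on the other (6.12 and 6.74), a bound of 0.40.

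Fibroblast, mesothelial, smooth muscle and endothelial cells also carry stromal integrins, and their markers differed between the arrays. The 9 fibroblast markers had a summed linear signal of 40145 with control siRNA and 53764 with HDAC9 siRNA. The collagen Col1a2, the brightest of them, gave 15669 and 21139 of these sums, and the other 8 summed to 24476 and 32625. Over the 9 fibroblast markers the median log2 ratio was 0.13, with 5 ratios above 0 and 4 below. The collagens Col1a1 (1.80) and Col3a1 (1.46) passed 2-fold. Lower were Thy1 (-0.72), Postn (-0.60), Pdgfrb (-0.18) and Pdgfra (-0.10). The 9 mesothelial markers summed to 13296 and 14590, with a median of -0.17, 3 ratios above 0 and 6 below. Msln was at least 2-fold lower (-1.11) but near the floor with HDAC9 siRNA, at 6.39. Krt7 was at -0.99, and the highest ratio was 0.56 (Lrrn4). Of 5 smooth muscle markers 4 were above background on the control array and 3 on the other, with sums of 9250 and 10975. Acta2 gave 5451 and 6890 of these sums. Of the 4 ratios 3 were above 0 and 1 below, that of Cnn1, which was at least 1.80-fold lower. Of 6 endothelial markers 2 were above background on each array, with sums of 581 and 724, and Pecam1 and Cdh5 were below background on both. No marker on these lists was at exactly 0, and their part in the values of the stromal integrins was not tested.

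**Figure D3:**
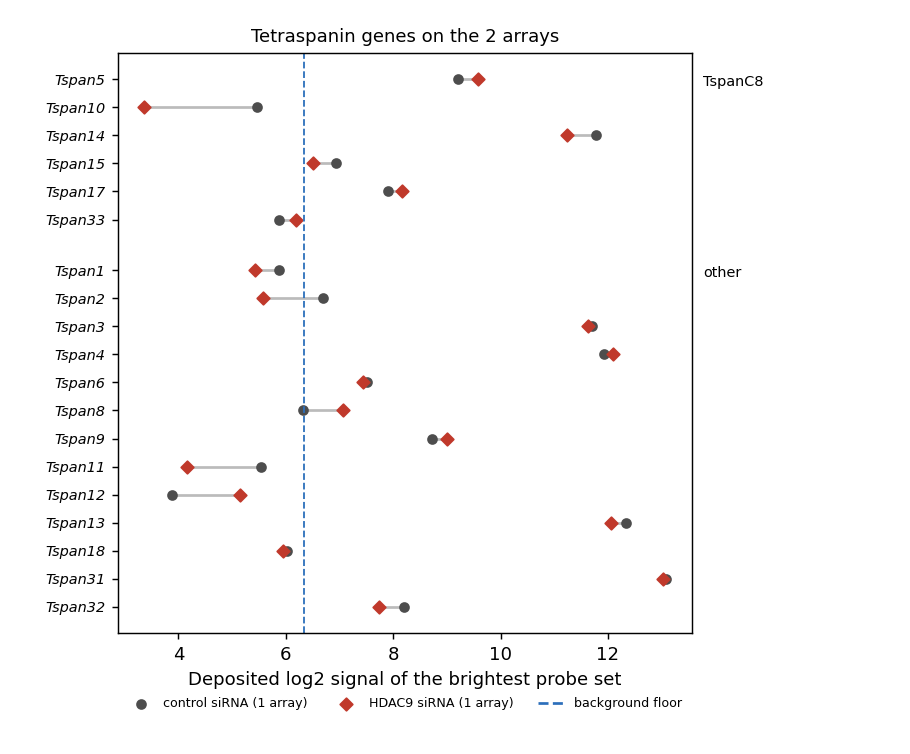
Deposited log2 signal of each tetraspanin gene's brightest probe set (x axis) on the control siRNA array (grey circles) and the HDAC9 siRNA array (red diamonds), with the TspanC8 subgroup first and the background floor of 6.34 as a dashed line. Tspan14 and Tspan32 lie to the left on the HDAC9 siRNA array, Tspan5 and Tspan9 to the right, and the genes left of the line are below background.

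Above background on at least 1 array were 13 of the 19 tetraspanins. Their median log2 ratio was -0.06, with 5 genes above 0 and 8 below, where 54.1% of all genes were above 0. Only Tspan8 passed 1.5-fold, as a bound, where 10.6% of all genes did. Within the 0.29 scatter stayed 7 of the 13, beside 65.7% of all genes.

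The TspanC8 subgroup, named for its cysteines, escorts the membrane protease ADAM10 to the cell surface and steers which proteins it cuts. Its 4 genes above background split evenly in direction. Tspan14 had log2 signals of 11.77 and 11.23 on the control and HDAC9 siRNA arrays, 1.46-fold lower. It was the lowest tetraspanin of the 11 above background on both arrays, and 3.14% of the genes in its bin, the brightest of the 4, differed by as much; it has a single probe set, again with a name ending in _s_at. Tspan15, another ADAM10 partner, was at 6.94 and 6.50 (log2 ratio -0.43), and close to the floor. Tspan5 was at 9.21 and 9.59, a log2 ratio of 0.38 from its brightest probe set and -0.26 from its second, so its direction was not settled. Tspan17 was at 7.90 and 8.16, with 0.25 and 0.18 from its 2 probe sets. Tspan10 and Tspan33 were below background on both arrays. Adam10 itself was at 12.45 and 12.38, a log2 ratio of -0.07.

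Among the other tetraspanins, Tspan32, found mainly in blood cells, was at 8.19 and 7.74, 1.37-fold lower, and its second probe set pointed the same way (at least 0.55 lower on the log2 scale). Tspan8, a tetraspanin of epithelia and carcinomas, was at 6.33, just under the floor, with control siRNA and at 7.06 with HDAC9 siRNA, at least 1.65-fold higher. Tspan2, of oligodendrocytes, was below the floor with HDAC9 siRNA (6.68 and 5.57), at least 1.27-fold lower. These last differences lie at the level of background signal.

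The remaining tetraspanins stayed within the scatter by their brightest probe set. Tspan31 was at 13.07 and 13.02, a log2 ratio of -0.06 that was 0.00 under quantile normalization and loess. Tspan3 was at 11.71 and 11.63, a log2 ratio of -0.08. Tspan4, a component of migrasomes, was at 11.92 and 12.09, a log2 ratio of 0.17. Tspan13 was at 12.34 and 12.06, with -0.28 from its brightest probe set and 0.13 from its second. Tspan9, of platelets, was at 8.73 and 9.004, a log2 ratio of 0.28. Tspan6 was at 7.51 and 7.44, with -0.06 from its brightest probe set and 0.58 from its second. Tspan1, Tspan11, Tspan12 and Tspan18 were below background on both arrays.

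**Figure D4:**
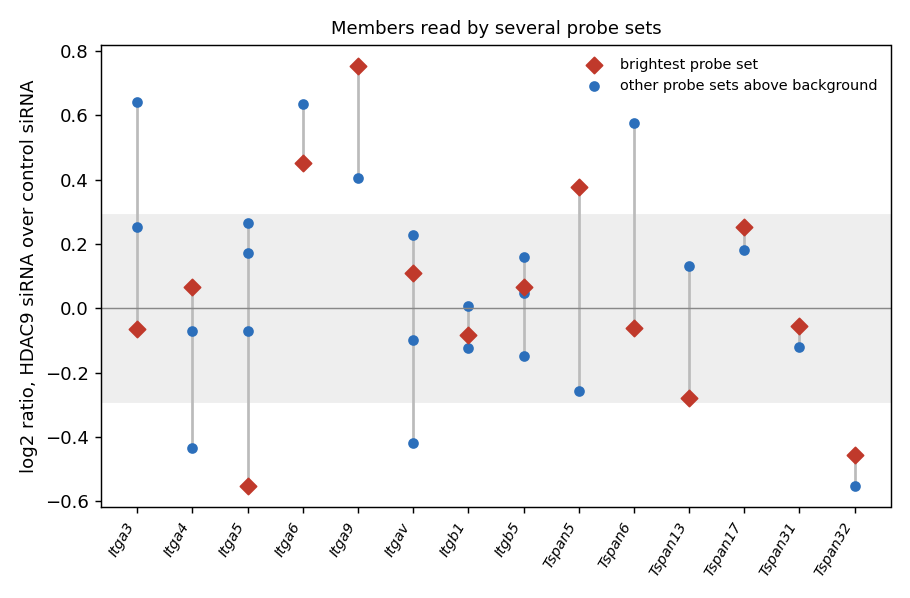
Log2 ratio between the arrays, HDAC9 siRNA over control (y axis), for each probe set above background of the 14 integrin and tetraspanin genes that have several (x axis); red diamonds are the brightest probe sets, blue circles the others, and the grey band is the 0.29 scatter; a ratio with 1 signal below the floor is drawn at its bound. All probe sets of Itga6, Itga9, Tspan17, Tspan31 and Tspan32 lie on one side of 0, and those of the other 9 genes lie on both sides.

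How far probe sets of the same gene matched was examined for the 14 genes with at least 2 above background. The second brightest probe set had the same direction as the brightest in 6 of 14 (42.9%), against 61.2% over 5671 genes. All probe sets above background shared a direction in 5 genes: Itga6 and Itga9 were higher, Tspan32 was lower, and Tspan17 and Tspan31 stayed within the scatter. The other genes above background, Itgb7, Itgb3, Itga1, Itga7, Itgb8, Tspan14, Tspan15, Tspan8 and Tspan2 among them, rest on 1 probe set each, with no second reading. The median gap between the 2 brightest probe sets was 0.28 on the log2 scale, and 0.22 over all such genes.

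Tetraspanins with CD and other names include well known macrophage proteins. Of 10 measured, 8 were above background on both arrays and 0 passed 1.5-fold, where 10.6% of all genes did. The median log2 ratio was -0.03, or 0.02 under quantile normalization and 0.03 under loess. Cd151, the laminin-integrin partner, was at 12.04 and 11.73 (-0.31), with all 5 of its probe sets between -0.31 and -0.45. Cd9 was at 14.16 and 13.91 (-0.25), Cd82 at 10.93 and 11.04 (0.11) and Rom1 at 7.32 and 7.23 (-0.10). The second probe set of Cd82, below background with control siRNA, gave a bound of 0.82. Of other tetraspanin partners, the immunoglobulin proteins Igsf8 and Ptgfrn were at 0.07 and 0.24 and the scavenger receptor Cd36 at -0.26. The second probe set of Ptgfrn gave 1.15, past 2-fold, and the other probe sets of Cd36 gave -0.37 and -0.43.

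Of the genes that activate integrins or link them to actin, 20 of 26 had ratios above 0, where 54.1% of all genes did, with a median of 0.21 against 0.03 for all genes. Within the 0.29 scatter were 15 of the 26, beside 65.7% of all genes. At least 1.5-fold higher were 7 and lower 0, where 7.81% and 2.79% of all genes were; at least 2-fold higher was 1, where 1.44% of all genes were. That gene was Bcar1 (p130Cas), a docking protein phosphorylated at adhesion sites, at 8.91 and 10.01, 2.15-fold higher, with its second probe set at 0.78. Parva, an adaptor of the integrin-linked kinase complex, was at 8.45 and 9.28 (0.84, and 1.27 by its second probe set). Apbb1ip (RIAM), which brings talin to the membrane, and Tln2, the talin of muscle and brain, were below background with control siRNA and at least 1.79-fold and 1.71-fold higher. The talin and kindlin of leukocytes, Tln1 and Fermt3, named after their values were seen, were at 0.23 and -0.07. The other probe sets of Tln1 above background gave 0.05 and 0.46. Those of Fermt3 gave 0.05, 0.14 and -0.36, so its direction was not settled.

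Of 19 integrin ligand genes above background, 17 had ratios above 0 and 2 below, where 54.1% of all genes were above 0. Within the scatter stayed 8 of the 19, beside 65.7% of all genes. At least 1.5-fold higher were 6 and lower 0, beside 7.81% and 2.79% of all genes. Their median was 0.40, above that of the activators and adaptors, but the order turned without _s_at, _x_at and _a_at probe sets (0.35 for ligands and 0.37 for activators and adaptors). Col1a1, a chain of type I collagen and 1 of the fibroblast markers above, was at 9.06 and 10.86, 3.49-fold higher. By brightest probe sets it was the only ligand past 2-fold. Tgfb1, whose latent form is bound by Itgav receptors, was at 9.03 and 9.96 (0.92), but its second probe set, near the floor, gave -0.19. Col4a1, of basement membranes, was at 10.06 and 10.86 (0.80, and 0.66 by its second probe set), and Fn1 (fibronectin) at 13.76 and 14.49 (0.73, and 1.05 by its second). The list was written with earlier results of these arrays known, collagen genes included, so its median is a description and no independent support. The 4 laminin genes above background, Lama4, Lama5, Lamb1 and Lamc1, were at 0.68, 0.73, 0.42 and 0.06. Second probe sets gave 1.35 for Lama5, 0.20 for Lamb1 and -0.24 for Lamc1. All 4 laminin genes were named after their values were seen.

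**Figure D5:**
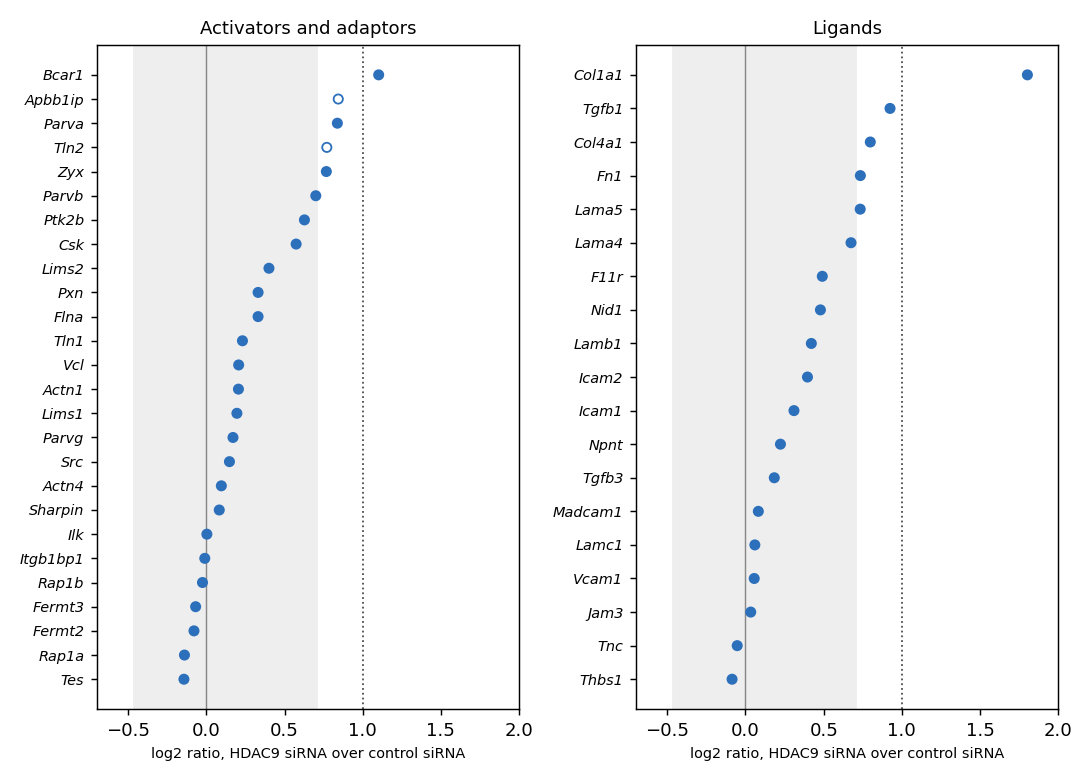
Log2 ratio between the arrays, HDAC9 siRNA over control (x axes), for the 26 integrin activator and adaptor genes (left) and 19 ligand genes (right) above background, named on the y axes; filled points were measured on both arrays, open points are bounds, the grey band runs from the 5th to the 95th percentile of all genes and the dotted line marks 2-fold higher. Most points lie right of 0, and Bcar1 and Col1a1 lie past the dotted line.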

How the data were processed

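Expression was measured on 2 Affymetrix arrays, 1 per group. The authors deposited log2 signals per probe set; MAS5 is named in the submitters' processing notes, but no source used here gives its version, scaling or detection calls. The trimmed mean linear signal was 497 on both arrays, so the scaling was kept. Gene names came from the platform annotation of 2016; 34945 of 45037 had 1 symbol, 932 several and 9160 none, and 34741 of the first matched RefSeq gene identifiers. Each gene took its probe set with the highest mean linear signal. The floor was the 95th percentile over 80 receptor probe sets (linear signal 80.9). The scatter is the SD, over genes, of the gap between a gene's 2 brightest probe sets above background in log2 ratio, divided by the square root of 2. Errors of list medians follow from it by the normal approximation for a median. They take genes as independent and are no replicate errors. The number of arrays limits the precision, and no test or p-value was computed. Every integrin and tetraspanin gene above background was named, and up to 4 genes with the largest ratios of each related list. Members, lists and alternatives were chosen with earlier results of these data known. Alternatives were other scalings, floors, probe set rules, list definitions and fold thresholds. The steps were tested on simulated data. Python 3.11.15, pandas 2.3.3 and statsmodels 0.14.6 were used.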

Additional observations from a re-analysis of the deposited data

How the results depend on the processing

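No paired analysis was possible because each group has 1 array. The count of 0 integrin and tetraspanin genes past 2-fold was the same under centring, quantile normalization, loess, the floor at the 99th percentile, the median over probe sets, without _s_at, _x_at and _a_at probe sets, at 3-fold and for genes above background on both arrays. It was 2 of 41 (Itga9 higher, Tspan2 lower) when the floor was lowered to the 75th percentile. With no floor and a pseudocount of 1 it was 7 of 43 (3 higher, 4 lower), and at 1.5-fold it was 5, where 10.6% of all genes passed. Over all genes, 658 of 15136 were at least 2-fold higher and 259 lower at the lowered floor. With no floor these were 2223 and 1481 of 18193. Itga9 and Tspan2 were already among the 32 genes: their signal below the floor is raised less when the floor is lower. The medians of the leukocyte integrins, the stromal integrins, their difference and the tetraspanins kept their signs under every alternative run, but their sizes moved. The leukocyte median was -0.01 under the lowered floor and without any, and -0.17 over Itgb2 and its partners alone. The stromal median reached 0.14 under quantile normalization and loess, and their difference ran from 0.10 (no floor) to 0.22 (quantile normalization). The tetraspanin median was closest to 0 under quantile normalization, at -0.03. The median of ligands was 0.27 with no floor, and that of activators and adaptors was 0.37, above the 0.35 of ligands, without _s_at, _x_at and _a_at probe sets; the cause was not tested, and these alternatives for the related lists were chosen after seeing the data. Tetraspanins with other names turned to 0.02 under quantile normalization and 0.03 under loess. Of 249 alternative values for 32 genes, 235 stayed within 0.29 and 14 moved by more; 8 genes changed sign in 1 or more alternatives. By the median over probe sets, Itga5 was at 0.05, and it was at 0.17 without _s_at, _x_at and _a_at probe sets; Itga3 and Tspan6 were at 0.25 and 0.26 by that median. The other 5, Itga2b, Itga4, Itgam, Itgb5 and Tspan31, stayed within the scatter of 0. Under the highest floor, the 99th percentile, Itga9, Tspan8 and Tspan15 were at 0.17, 0.14 and -0.01.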
